A study of Mus musculus with 4 samples.

Results

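The constitutive proteasome subunit genes were taken as all genes whose symbol is Psma, Psmb, Psmc or Psmd followed by digits, leaving out the interferon-inducible Psmb8, Psmb9 and Psmb10 and all pseudogenes, and each gene was read from the brightest array row that lists it alone. The rule gave 35 of the 30142 genes with a row of their own, each with a single row. Expression was measured on whole-transcript arrays in 4T1, a metastatic mouse mammary carcinoma line that lacks the hormone receptors and HER2 and stands for triple-negative disease. There were 2 arrays of cells labelled shMCT-1, in which a short hairpin RNA was directed at MCT-1 and clones were kept in puromycin, and 2 of cells with a scramble control, labelled NC. All were cultures of the same line in the same medium, and the label of the selection names the shMCT-1 clones, so whether NC cells also received puromycin is not stated. The number of clones behind each array is not stated either, and the values show the spread between 2 samples labelled as biological replicates. All values are log2 signals as deposited, and all differences are shMCT-1 minus NC.

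The 26S proteasome degrades proteins tagged with ubiquitin. Its core particle is a barrel of stacked rings, the outer ones of alpha subunits (Psma genes), which gate the entry, and the inner ones of beta subunits (Psmb genes), some of which carry the proteolytic sites. The regulatory particle caps the barrel: its base holds a ring of ATPases (Psmc genes) that unfold substrates, with scaffold and ubiquitin-binding subunits (Psmd genes), and its lid removes the ubiquitin chains. Subunits of the core and of the cap are needed in fixed proportions, and the transcription factor NRF1 (gene Nfe2l1) raises their genes together when proteasome activity is short. The 35 genes comprised 7 alpha subunits, 6 of the 7 constitutive beta subunits, 6 ATPases, 3 other base subunits, 8 lid subunits, 3 assembly chaperones of the base that carry Psmd names, and the testis-specific Psma8 and thymus-specific Psmb11. The catalytic subunit Psmb5 is missing because its row also lists the microRNA gene Mir686 and so was not used.

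Mcts1, which encodes MCT-1, was 7.81 and 7.89 in the arrays labelled shMCT-1 and 7.86 and 8.05 in NC, with a difference of -0.10 (SE 0.122, adjusted p = 0.945, limma), so a lower level was not detected and the groups are named here by their labels. Mcts2, a near copy of Mcts1 whose probes may share its transcripts, was 6.61 and 6.96 in the arrays labelled shMCT-1 and 5.81 and 6.61 in NC, with a difference of 0.57 (SE 0.302, adjusted p = 0.896, limma) and the nearest arrays 0.0017 apart. The 8 epithelial markers measured (Epcam, Cdh1, Krt8, Krt18, Krt19, Krt14, Cldn4 and Esrp1) were at 11.12 or more on every array, while lymphocyte, fibroblast and endothelial markers lay between 2.80 and 4.24, near the array medians of 3.68 to 3.73. Of the epithelial markers, 7 had a difference below 0 and 0 passed after adjustment. Krt14 was 11.12 and 11.20 in the arrays labelled shMCT-1 and 12.92 and 12.76 in NC, a difference of -1.68 (SE 0.118, adjusted p = 0.669, limma), and Krt19 differed by -1.14 (SE 0.184, adjusted p = 0.882, limma), both more than any proteasome gene. Of 5 macrophage markers, Ptprc, Adgre1 and Itgam were at 3.49 or below, whereas Cd68 was 8.55 and 8.999 in the arrays labelled shMCT-1 and 10.15 and 8.26 in NC, and Csf1r was 5.27 and 4.47 against 6.07 and 4.61. Their part in the results below was not tested. Over all 65956 rows, 0 passed an adjusted p of 0.05 in limma, and 3698 had an unadjusted p under 0.05.

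NRF1 binds the antioxidant response element, so promoters are shown first, from RefSeq windows on GRCm38.p6 that run from 250 bases before to 50 bases after the start site. Windows were present for 28 of the 35 genes. The core of the element, TGACNNNGC on either strand, was found in 4 of these 28 genes (14.3%), against 13.99% of all 27025 genes with a window, so the members carried it about as often as any gene. The CCAAT box, searched as CCAAT on either strand, was in 12 of the 28 (42.9%), against 41.1% of all genes. The 4 windows with the core are printed with it in capitals, followed by that of Psma7, the member with the largest difference, which has none in this window. A match is a run of letters and does not show binding.
Psmb6 (chr11:70525107-70525406, plus strand): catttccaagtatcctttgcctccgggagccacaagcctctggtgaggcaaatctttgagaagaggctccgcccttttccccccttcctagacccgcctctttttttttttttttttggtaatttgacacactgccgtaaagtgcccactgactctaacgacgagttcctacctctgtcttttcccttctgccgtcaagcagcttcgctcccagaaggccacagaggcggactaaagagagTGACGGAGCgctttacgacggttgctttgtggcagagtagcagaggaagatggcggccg
Psmc6 (chr14:45329574-45329873, plus strand): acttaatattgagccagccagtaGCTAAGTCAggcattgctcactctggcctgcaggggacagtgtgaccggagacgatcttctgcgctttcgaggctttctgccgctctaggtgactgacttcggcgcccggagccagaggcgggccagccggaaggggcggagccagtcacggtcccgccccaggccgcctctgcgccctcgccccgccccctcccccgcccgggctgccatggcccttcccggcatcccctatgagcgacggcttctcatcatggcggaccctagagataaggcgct
Psmd9 (chr5:123227940-123228239, plus strand): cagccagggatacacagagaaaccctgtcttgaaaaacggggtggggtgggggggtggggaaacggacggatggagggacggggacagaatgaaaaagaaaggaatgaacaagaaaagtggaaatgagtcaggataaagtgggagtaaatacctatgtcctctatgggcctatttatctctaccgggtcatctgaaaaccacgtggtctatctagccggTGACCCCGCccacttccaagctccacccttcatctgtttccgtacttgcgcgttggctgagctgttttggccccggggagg
Psmd12 (chr11:107479278-107479577, plus strand): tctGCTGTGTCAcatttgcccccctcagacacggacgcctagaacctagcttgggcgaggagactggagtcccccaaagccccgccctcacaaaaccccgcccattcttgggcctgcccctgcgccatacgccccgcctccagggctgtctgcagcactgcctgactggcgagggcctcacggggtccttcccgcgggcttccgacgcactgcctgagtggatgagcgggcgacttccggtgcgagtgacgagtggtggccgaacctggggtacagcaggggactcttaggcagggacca
Psma7 (chr2:180042415-180042714, minus strand): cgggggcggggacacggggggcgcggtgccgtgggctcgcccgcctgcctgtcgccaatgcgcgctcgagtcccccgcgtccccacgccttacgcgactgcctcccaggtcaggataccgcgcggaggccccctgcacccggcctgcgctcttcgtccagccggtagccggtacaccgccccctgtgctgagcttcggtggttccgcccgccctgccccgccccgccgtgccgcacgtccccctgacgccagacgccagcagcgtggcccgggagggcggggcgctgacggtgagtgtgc

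The proteasome genes differed little between the groups, as did most genes. The differences of the members ran from -0.18 for Psma8, which was close to the array medians, to 0.31 for Psma7, which is 1.24-fold. Without Psma8 and Psmb11 the lowest was -0.16, for Psmd6. Of the 35, 0 reached 1.5-fold, a size reached by 2.43% of all rows and by 5.38% of the 6742 genes with a mean log2 signal of at least 8. The median size of a difference was 0.12 for the members, 0.10 for all genes and 0.16 for these brighter genes. In limma, 0 members passed after adjustment over all rows, against 0% of all rows, and their adjusted p began at 0.882. At an unadjusted p under 0.05 there was 1 member, Psma7, against 5.61% of all rows and 8.84% of the brighter genes. The median difference was 0.08 over the 35 members, 0.014 over all genes and 0.031 over the brighter genes, and 22 members were above 0 and 13 below, where 56.4% of all rows and 55.5% of the brighter genes were above 0. Both arrays labelled shMCT-1 lay above both NC arrays in 8 members and below both in 6, or in 5 without Psma8 and Psmb11. Among all rows these shares were 19.8% and 14%, and among the brighter genes 19.9% and 20.2%.

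**Figure D1:**
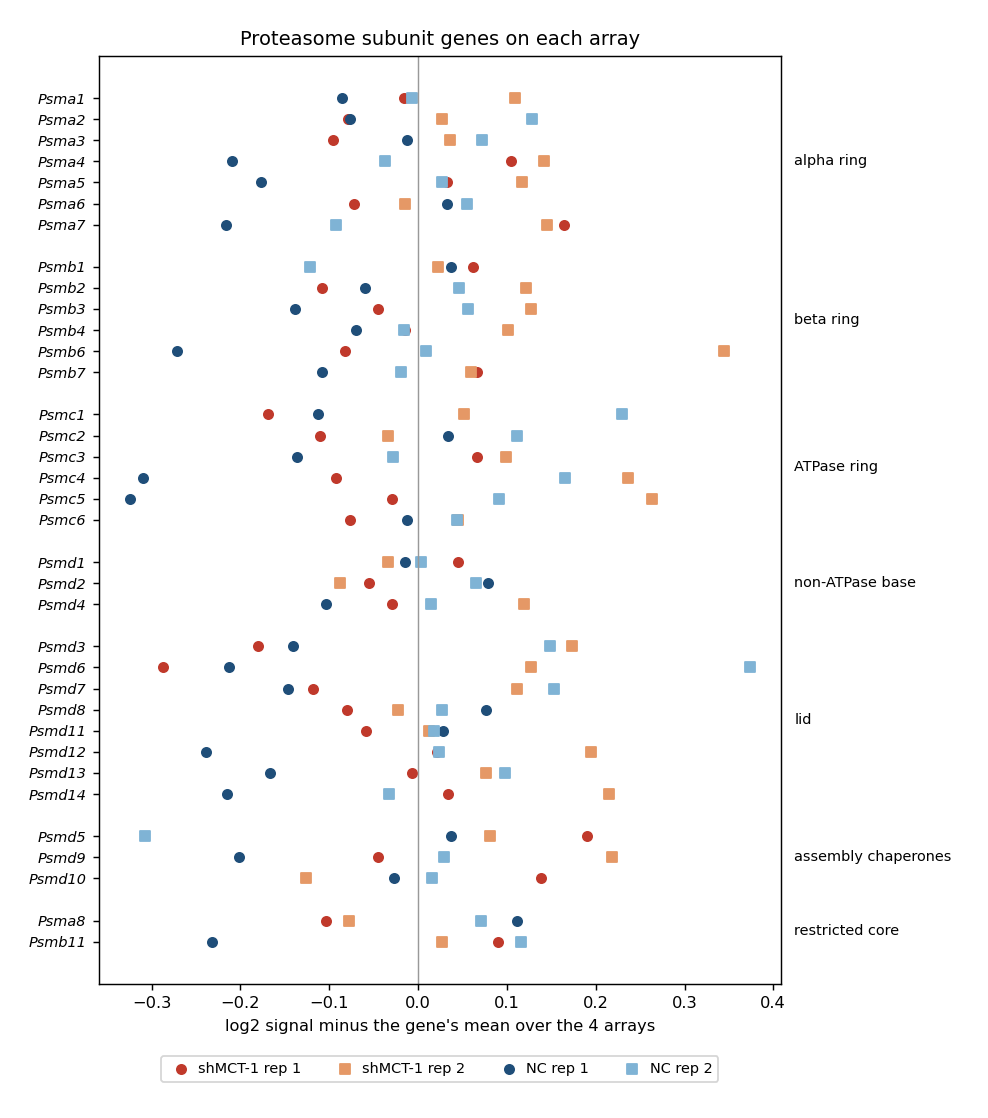
Log2 signal of each of the 35 proteasome genes on each array, minus the mean of that gene over the 4 arrays, in rows by role (circles, replicate 1; squares, replicate 2). NC replicate 1 is the lowest array in 18 of 35 genes and shMCT-1 replicate 2 the highest in 16.

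The precision set by 4 arrays was moderate. The 95% interval of a member reached 0.33 to either side at the median, and 34 of the 35 intervals included 0, that of Psma7 being the exception at 0.02 to 0.60. The outermost bounds were -0.83 for Psmd6 and 0.77 for Psmb6, while others were narrower, such as -0.41 to 0.12 for Psmd2. The median SD within groups was 0.11 for the members, 0.12 for all genes and 0.15 for the brighter genes.

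The result also rested on which arrays were used. NC replicate 1 was below the mean of the other 3 arrays in 27 of 35 members, by 0.14 at the median, and it was the lowest array in 51.4% of members against 43.2% of the brighter genes. Without it the members' median turned to -0.015, with 16 of 35 above 0. Without NC replicate 2 the median was 0.13, with 27 above 0. Leaving out shMCT-1 replicate 1 gave 0.12, and leaving out shMCT-1 replicate 2 gave 0.027. Over the 4 fits that each leave out an array, 21 members kept their sign and 14 did not. Each such fit leaves the replicate numbers unbalanced, and replicate 2 was above replicate 1 in both groups in 24 of the 35 members. A turn of sign, here and for single genes below, thus does not show that arrays of the same number differed in direction.

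**Figure D2:**
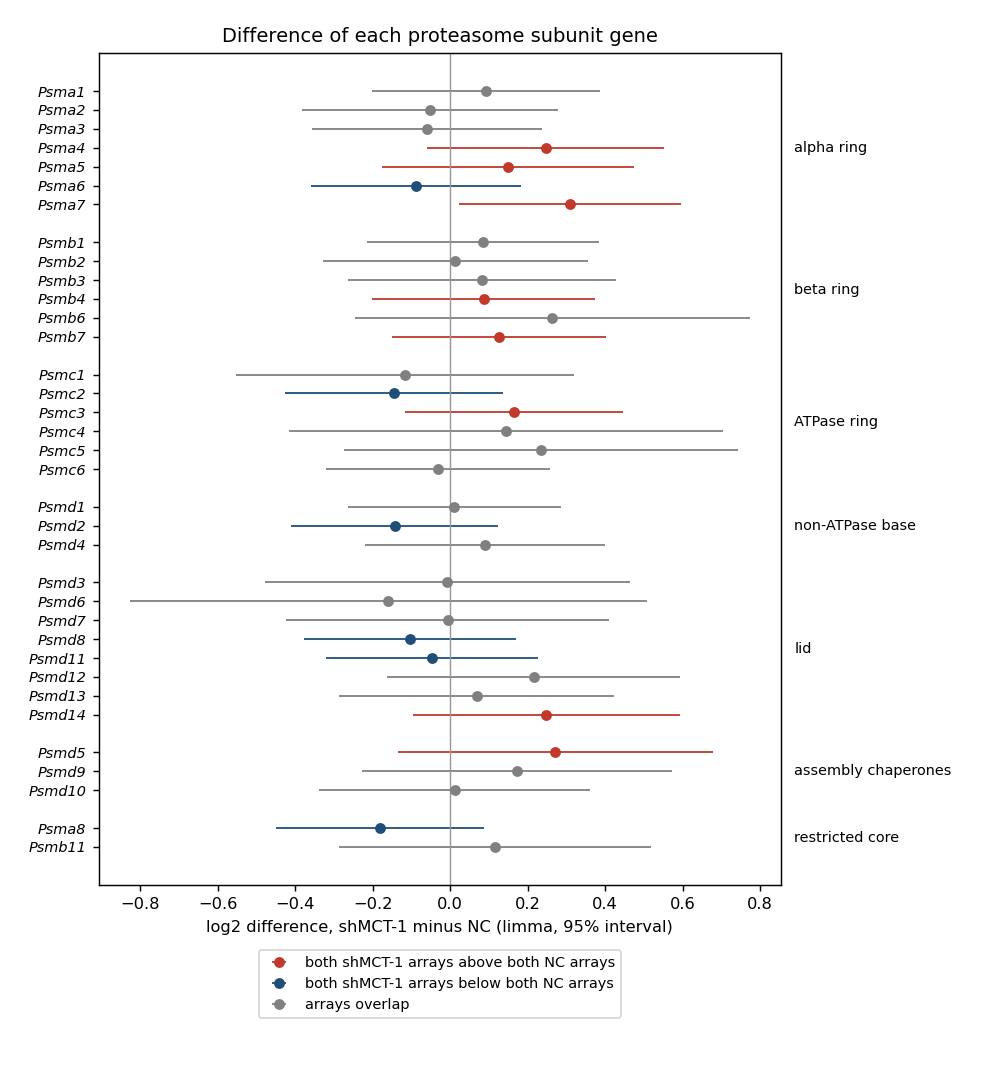
Log2 difference, shMCT-1 minus NC, of each proteasome gene with its 95% interval from limma, in rows by role. Colours give the genes whose arrays do not overlap, 8 above and 6 below, and 34 of the 35 intervals include 0.

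In the alpha ring, the outer ring of the core, 4 of 7 genes had a difference above 0 and 3 below, with a median of 0.09. Psma7, the alpha 4 subunit, was 10.02 and 10.00 in the arrays labelled shMCT-1 and 9.64 and 9.76 in NC. The groups lay apart, and its difference of 0.31 (SE 0.109, unadjusted p = 0.0392, adjusted p = 0.882, limma) was the largest of all members; it was 0.25 without NC replicate 1. Psma4, the alpha 3 subunit that takes part in the gate, was 12.90 and 12.94 in the arrays labelled shMCT-1, against 12.58 and 12.76 in NC, a difference of 0.25 (SE 0.116, adjusted p = 0.890, limma). Here too the groups lay apart, with NC replicate 1 lowest.

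Psma5, the alpha 5 subunit, was 13.48 and 13.56 against 13.27 and 13.47 in NC, with the nearest arrays of the groups 0.0051 apart, and differed by 0.15. Psma6, the alpha 1 subunit, had the lowest difference of the ring. It was 13.56 and 13.62 in the arrays labelled shMCT-1 and 13.67 and 13.69 in NC, and its difference of -0.09 (SE 0.103, adjusted p = 0.947, limma) kept its sign with each array left out. Psma1 differed by 0.09, Psma2 by -0.05 and Psma3 by -0.06, with overlapping arrays. The last pair turned sign when an array was left out.

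In the constitutive beta ring, 6 of 6 measured genes had a difference above 0, from 0.01 for Psmb2 to 0.26 for Psmb6, and none passed. Of the 3 catalytic subunits, 2 were measured. Psmb6, the beta 1 subunit with caspase-like activity, was 10.14 and 10.57 in the arrays labelled shMCT-1 and 9.95 and 10.23 in NC, a difference of 0.26 (SE 0.195, adjusted p = 0.908, limma). Its groups overlapped, shMCT-1 replicate 2 was the highest array, and without that array the difference was 0.05. Psmb7, the beta 2 subunit with trypsin-like activity, was 14.38 and 14.38 in the arrays labelled shMCT-1 and 14.21 and 14.30 in NC. The difference was 0.13 (SE 0.106, adjusted p = 0.915, limma), the groups lay apart, and it was 0.08 without NC replicate 1.

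The 4 non-catalytic beta subunits had differences of 0.01 to 0.09. Psmb2, the beta 4 subunit, was 11.01 and 11.24 in the arrays labelled shMCT-1 and 11.06 and 11.16 in NC, a difference of 0.01 (SE 0.131, adjusted p = 0.996, limma). The arrays of shMCT-1 enclosed those of NC, and the sign turned after a further quantile normalisation (-0.0018) and after median centring (-0.012). Psmb4 differed by 0.09 with groups apart by 0.00092, and Psmb1 (-0.018 after the quantile normalisation) and Psmb3 by 0.08 with overlapping arrays.

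In the ATPase ring of the base, 3 of 6 genes had a difference above 0 and 3 below, with a median of 0.06. Psmc5, the Rpt6 ATPase, was 11.76 and 12.06 in the arrays labelled shMCT-1 and 11.47 and 11.88 in NC, a difference of 0.23 (SE 0.194, adjusted p = 0.915, limma). The groups overlapped and NC replicate 1 was lowest, and without that array the difference was 0.03. Replicate 2 of Psmc5 was above replicate 1 by 0.29 in shMCT-1 and 0.42 in NC. Each shMCT-1 array was above the NC array of the same number. Psmc3, the Rpt5 ATPase, was 10.86 and 10.89 in the arrays labelled shMCT-1 and 10.66 and 10.76 in NC. Its groups lay apart with a difference of 0.16 (SE 0.108, adjusted p = 0.906, limma).

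At the other end, Psmc2, the Rpt1 ATPase, was 13.78 and 13.86 in the arrays labelled shMCT-1 and 13.93 and 14.01 in NC. Both shMCT-1 arrays were lower, by 0.15 on average (SE 0.107, adjusted p = 0.908, limma), and the difference was between -0.18 and -0.11 with an array left out. Psmc1 differed by -0.12, Psmc6 by -0.03 and Psmc4 by 0.14, and each of these turned sign in a fit with an array left out. Psmc4, the Rpt3 ATPase, was among the most variable, at 13.28 and 13.61 in the arrays labelled shMCT-1 and 13.06 and 13.54 in NC. In each of the 6 ATPase genes replicate 2 was above replicate 1 in both groups, as it was in 24 of the 35 members and in 52.0% of the brighter genes.

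Of the 3 non-ATPase base subunits, Psmd2 (Rpn1), a scaffold that docks ubiquitin-chain shuttles, was 15.14 and 15.11 in the arrays labelled shMCT-1 and 15.27 and 15.26 in NC. The arrays of each group nearly coincided and the groups lay apart, with a difference of -0.14 (SE 0.102, adjusted p = 0.906, limma) that ranged from -0.16 to -0.13 with an array left out. Psmd4 (Rpn10), a ubiquitin receptor, was 11.15 and 11.30 in the arrays labelled shMCT-1 and 11.08 and 11.20 in NC, overlapping, with a difference of 0.09 (SE 0.119, adjusted p = 0.955, limma). Psmd1 (Rpn2), a further scaffold, differed by 0.01, and by -0.088 after the quantile normalisation.

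In the lid, 3 of 8 genes had a difference above 0 and 5 below, with a median of -0.007. Psmd14 (Rpn11), the deubiquitinase that cuts ubiquitin chains off the substrate, was 10.57 and 10.75 in the arrays labelled shMCT-1 and 10.32 and 10.50 in NC. The groups lay apart, and the difference of 0.25 (SE 0.132, adjusted p = 0.898, limma) was 0.16 without NC replicate 1. Psmd6 (Rpn7) had the lowest difference of the lid at -0.16 (SE 0.255, adjusted p = 0.967, limma), with 12.27 and 12.68 in the arrays labelled shMCT-1 and 12.34 and 12.93 in NC. Its groups overlapped, its spread within groups was the widest of all members, and it turned to 0.13 without NC replicate 2.

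Psmd12 (Rpn5) differed by 0.22 with overlapping arrays and kept its sign with each array left out. Psmd8 (Rpn12) at -0.10 and Psmd11 (Rpn6) at -0.05 were the lid genes with both shMCT-1 arrays below both NC arrays. Psmd13 (Rpn9) was at 0.07, Psmd3 (Rpn3) at -0.007 and Psmd7 (Rpn8) at -0.007, and these 3 turned sign when an array was left out.

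Among the assembly chaperones of the base, Psmd5 (S5b) was 13.53 and 13.42 in the arrays labelled shMCT-1 and 13.38 and 13.03 in NC. The groups lay apart with NC replicate 2 the lowest array, and the difference of 0.27 (SE 0.155, adjusted p = 0.898, limma) was 0.10 without it. Psmd10 (gankyrin) was 10.43 and 10.16 in the arrays labelled shMCT-1 and 10.26 and 10.30 in NC, a difference of 0.01 (SE 0.134, adjusted p = 0.997, limma) with shMCT-1 arrays on either side of NC. Psmd9 (p27) was at 0.17, with overlapping arrays.

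The tissue-restricted members were close to or below the array medians. Psma8, the alpha subunit of male germ cells, was 3.76 and 3.78 in the arrays labelled shMCT-1 and 3.97 and 3.93 in NC, a difference of -0.18 (SE 0.103, adjusted p = 0.898, limma). Psmb11, the beta subunit of the thymic cortex, was 2.86 and 2.79 in the arrays labelled shMCT-1 and 2.53 and 2.88 in NC, with overlapping arrays and a difference of 0.12 (SE 0.154, adjusted p = 0.956, limma).

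The core and the regulatory particle were compared over 13 and 17 genes. The median difference was 0.09 for the core, with 10 of 13 genes above 0, and -0.007 for the regulatory particle, with 8 of 17 above 0. The medians thus differed by 0.093. Of the brighter genes, 55.5% were above 0. Over the alternative fits the count above 0 ran from 8 to 12 for the core and from 6 to 12 for the regulatory particle. It was 8 and 7 after a further quantile normalisation. No test was made of this contrast, since genes are not replicates and 4 arrays cannot give an exact two-sided permutation p below 0.333. Taken on each array as the median distance of the genes from their own means, the core minus the regulatory particle was 0.042 and 0.010 in the arrays labelled shMCT-1, and 0.051 and -0.056 in NC. The NC arrays thus enclosed those labelled shMCT-1. The difference of the medians was -0.006 without NC replicate 2, where the regulatory median was 0.14, and 0.12 without NC replicate 1. Dropping shMCT-1 replicate 1 gave 0.037, and dropping shMCT-1 replicate 2 instead gave 0.11.

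**Figure D3:**
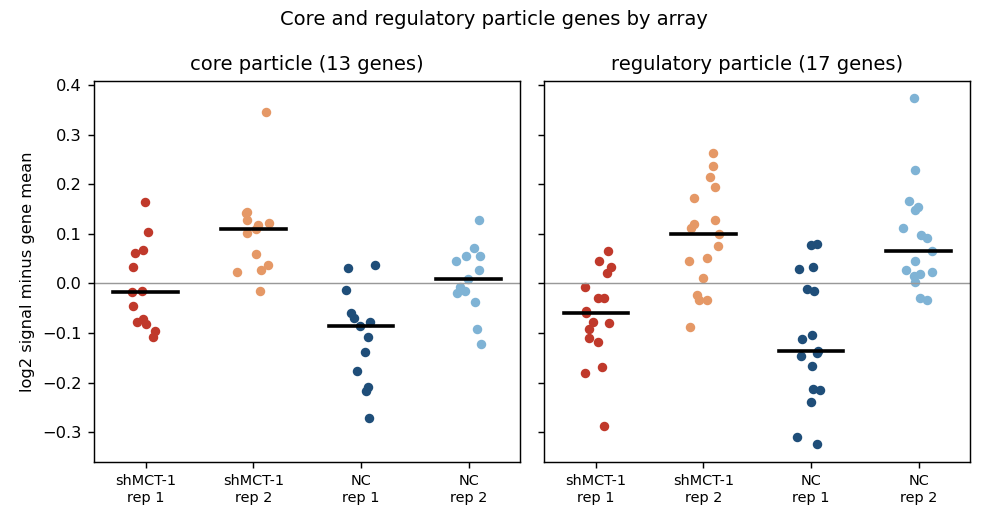
Log2 signal minus the mean of each gene for the 13 core genes (left panel) and the 17 regulatory particle genes (right panel) on each array, with the median as a black bar. In both panels shMCT-1 replicate 2 has the highest median (0.11 and 0.10) and NC replicate 1 the lowest (-0.09 and -0.14).

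The members' differences varied with the chromosome on which they lie, a pattern looked for after the values were seen, with chromosomes taken from the RefSeq table of GRCm38.p6. Chromosome 2 holds 5 members of different parts of the particle, Psma7, Psmb7, Psmc3, Psmd14 and Psmd5, and in all 5 both shMCT-1 arrays lay above both NC arrays, with a median difference of 0.25. Of the 30 members elsewhere, 3 (10%) lay apart as higher and 6 (20%) as lower, with a median of 0.013. Among all 576 brighter genes on chromosome 2 the median difference was 0.15, 75.2% were above 0 and 38.0% lay apart as higher, against 53.6% and 18.1% of brighter genes on the other chromosomes, of which 21.4% lay apart as lower. Their median on chromosome 2 stayed between 0.10 and 0.19 when any array was left out.

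All 20 chromosomes, chromosome 2 included, were then set in order of the median of their other brighter genes. On the 5 chromosomes whose other brighter genes had the highest medians (1, 2, 3, 15 and 17, from 0.099 to 0.18), 10 of 10 members were above 0 and 7 lay apart as higher, the 5 members of chromosome 2 among them, where 34.7% of the other brighter genes lay apart as higher. On the 5 with the lowest medians (8, 12, 13, 14 and 18, from -0.17 to -0.055), 1 of 9 members was above 0, Psmb11. There, 2 lay apart as lower, Psma6 and Psma8, where 37.4% of the other brighter genes did. Psma8 and Psmb11 were close to or below the array medians, so they are not brighter genes themselves. On the 10 between them, 11 of 16 were above 0, with 1 apart as higher and 4 as lower, where the shares of the other brighter genes were 16.7% and 20.6%. Of the other brighter genes, 73.7%, 32.6% and 54.6% were above 0 on the highest, lowest and middle chromosomes.

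Across the 35 members, the difference and the chromosome median had a Pearson r of 0.60 and a Spearman rho of 0.66. This is a description over genes that share the same 4 arrays and, in part, a chromosome. The dim Psma8, Psmb11 and Psmd9 were not left out of it. When the chromosome median was subtracted, the median size of a member's difference was 0.075, against 0.12 before, and the medians of the core and the regulatory particle were 0.022 and -0.009. Why the chromosomes differed was not tested.

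**Figure D4:**
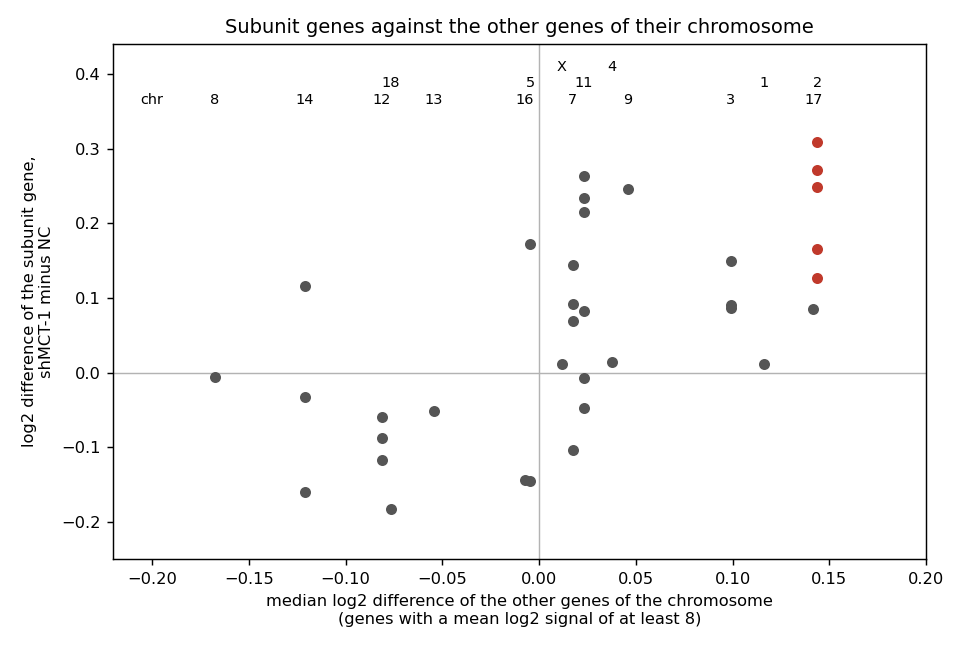
Log2 difference of each of the 35 members (vertical axis) against the median log2 difference of the other brighter genes of its chromosome (horizontal axis), with chromosome names above and the 5 members of chromosome 2 in red. Members on chromosomes at the left are mostly below 0, and the 10 members of chromosomes 1, 2, 3 and 17 are all above 0.

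Around the constitutive particle, the interferon-inducible genes had a different array pattern. All 4 measured (Psmb8, Psmb9, Psmb10 and Psme1) had a difference below 0, and 0 of 4 passed. In 1 of them the groups lay apart as lower, as they did in 14% of all rows and 20.2% of the brighter genes. Psmb9 was 3.95 and 3.64 in the arrays labelled shMCT-1 and 4.13 and 3.56 in NC, near the array medians, with a difference of -0.05. Psmb10, the inducible counterpart of Psmb7, was 7.24 and 7.12 in the arrays labelled shMCT-1 and 8.49 and 7.41 in NC, a difference of -0.77 (SE 0.369, adjusted p = 0.892, limma), and -0.23 without NC replicate 1. Psmb8, the inducible counterpart of Psmb5, was 5.10 and 4.46 against 5.52 and 4.14 in NC, with a difference of -0.05. The activator subunit Psme1 was at -0.52, and at -0.13 without NC replicate 1. In these 4 genes NC replicate 1 was the highest array, by 0.42 to 1.24 above the mean of the others, whereas it was the lowest array in 18 of the 35 constitutive genes.

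The transcriptional regulators were measured in full, 8 of 8 with 4 above 0 and 4 below, and none passed. Nfe2l1, which encodes NRF1, was 11.65 and 11.21 in the arrays labelled shMCT-1 and 12.78 and 11.50 in NC. Its high value was on NC replicate 1, 1.33 above the mean of the others, and the difference of -0.71 (SE 0.454, adjusted p = 0.905, limma) was -0.07 without that array. On that same array the constitutive genes were 0.11 below their own means at the median, and the brighter genes were at -0.05. Of the 4 members with the element core printed above, Psmb6, Psmd9 and Psmd12 were lowest on NC replicate 1, and Psmc6 was not. That array was the lowest in 51.4% of all members and in 43.2% of the brighter genes. A link of these levels to Nfe2l1 or to the element was not tested.

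Ngly1, the deglycosylase that processes NRF1, was 6.08 and 6.08 in the arrays labelled shMCT-1 and 6.39 and 6.52 in NC. The groups lay apart by more than their spread, with a difference of -0.38 (SE 0.111, unadjusted p = 0.021, adjusted p = 0.882, limma) that ranged from -0.45 to -0.31 with an array left out. Vcp, the ATPase that extracts NRF1 from the endoplasmic reticulum, was at -0.15 with groups apart, Nfe2l2 (NRF2) was at 0.18, and Maff, a small Maf partner, had the highest difference of the list at 0.24. Ngly1, Vcp and Nfe2l2 were named after their values were seen.

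Of the 6 measured proteasome-bound deubiquitinases and ubiquitin receptors (8 listed), 1 was above 0 and 5 below. Ubqln1, a shuttle that brings ubiquitinated proteins to the proteasome, was 13.16 and 13.21 in the arrays labelled shMCT-1 and 13.62 and 13.57 in NC. The difference of -0.41 (SE 0.104, unadjusted p = 0.0118, adjusted p = 0.882, limma) kept between -0.44 and -0.39 with an array left out. Uchl5, a deubiquitinase of the regulatory particle, was 14.38 and 14.72 against 14.08 and 14.47 in NC, overlapping, at 0.27.

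Core assembly genes split, 3 of 5 above 0. Pomp, the maturation factor of the core, had the highest difference, 0.25, which became -0.02 once NC replicate 1 was dropped, and Psmg4 the lowest at -0.28. Psmf1, a proteasome inhibitor encoded on chromosome 2, was 6.26 and 6.76 in the arrays labelled shMCT-1 and 5.86 and 6.26 in NC, a difference of 0.45 (SE 0.231, adjusted p = 0.894, limma) with the nearest arrays 0.0038 apart. The activator Psme4 was at -0.10. Sem1, a small lid subunit, was at 0.18. Uba6, a ubiquitin-activating enzyme and the sole measured gene of 6 listed for ubiquitin and its activation, was at 0.18 too. Among these pathway genes below 0, Psmb10 lies on chromosome 8, Ngly1 and Psme1 on 14, and Ubqln1 and Psmg4 on 13. These chromosomes are among the 5 with the lowest medians, as is that of Psmg2 (18), which was above 0. Psmb8 and Psmb9 (17) lie on the 5 highest, and Nfe2l1, Psme4 (both 11) and Vcp (4) between. Of the other proteasome pathway genes below 0, Usp14 (18) lies on the lowest and Ubqln4 (3) on the highest. Rad23b (4), Mafk (5), Psmg1 (16) and Ubqln2 (X) lie between. The part of the chromosome in these differences was not tested.

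**Figure D5:**
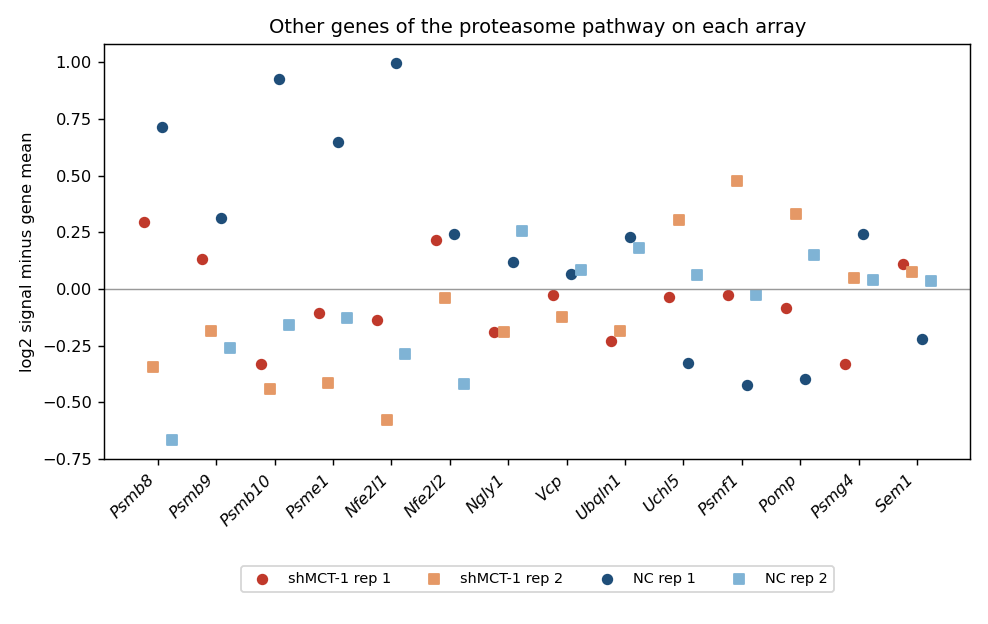
Log2 signal minus the mean of each gene on the 4 arrays for 14 other genes of the proteasome pathway. NC replicate 1 is highest for Psmb8, Psmb9, Psmb10, Psme1 and Nfe2l1, and both shMCT-1 arrays are below both NC arrays for Ngly1, Vcp and Ubqln1.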

How the data were processed

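RNA of 4 cultures was measured on Affymetrix whole-transcript arrays. The authors summarised the scans per gene by RMA in Affymetrix Expression Console, per the submitters' processing notes, and the deposited values are log2 signals (lowest 1.29, highest 19.88). Neither software versions nor options are stated, nor is a genome build. RMA summaries compress dim and very bright probes, so small differences may understate the true size, and levels were set against the array medians only to tell detected from undetected markers and members. Groups came from the titles, and every value column was matched by its sample name. The probe table named 30604 of 65956 rows with 1 symbol and 2146 with several; 827 symbols were updated through the gene ID (GRCm38.p6).

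The fit used all rows (limma 3.58.1, R 4.3.3) without trend or block, with Benjamini-Hochberg adjustment over all rows. It had 2 residual and 2.72 prior degrees of freedom. The fit was run on simulated arrays with independent noise and changes larger than the difference of any member. That run does not cover differences of the members' size, nor a part shared by arrays of the same number. The number of arrays limits the precision. Members and lists were chosen with earlier results of these data known. The rule for array values took the catalytic subunits, the highest and lowest difference of each role and the 6 lowest p, and for other lists the highest and lowest difference, some given without array values. Psma5 and Psmc4 were added after their values were seen. The threshold of 8 for brighter genes and the chromosome comparison were chosen after seeing the data. Levels behind each gene rest on 1 row, and whether its probes also read pseudogenes is not known.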

Additional observations from a re-analysis of the deposited data

How the results depend on the processing

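With limma, 0 rows and 0 members passed under any of the 12 alternatives, and the members' adjusted p ran from 0.417 to 1 over them. No alternative placed the median of all 35 members more than 1 replicate SD from its reported value. The contrast of core with regulatory particle ran from -0.0058 to 0.12 with an array left out, and the regulatory median from -0.082 to 0.14. After the further quantile normalisation the contrast was 0.139 and the regulatory median -0.088. The contrast had a replicate SD of 0.056 and moved by more than that without shMCT-1 replicate 1 or NC replicate 2. The regulatory median, with a replicate SD of 0.128, did so without NC replicate 2. After the further quantile normalisation Psmb1 was -0.018, Psmb2 -0.0018 and Psmd1 -0.088, and after centring each array on its median Psmb2 was -0.012, Psmd1 -0.015 and Psmd10 -0.014; none of these 4 genes was below 0 in the fit as reported, and Psmb2, Psmd1 and Psmd10 also turned with an array left out. The filter on dim rows left Psmb11 out, and no member had several rows to average.

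Leaving out an array turned the sign of 14 members, whose ranges over the 4 such fits were as follows. In the core, Psma2 ran from -0.15 to 0.051, Psma3 from -0.13 to 0.0066, Psmb2 from -0.10 to 0.13 and Psmb3 from -0.015 to 0.18. Among ATPases, Psmc1 ran from -0.29 to 0.054, Psmc4 from -0.093 to 0.38 and Psmc6 from -0.093 to 0.029. Of other base and lid genes, Psmd1 ran from -0.028 to 0.051, Psmd3 from -0.18 to 0.17, Psmd6 from -0.45 to 0.13, Psmd7 from -0.16 to 0.14 and Psmd13 from -0.063 to 0.20. Psmd10 ran from -0.12 to 0.14 and Psmb11 from -0.058 to 0.29. Among other pathway genes, Psmb8 ran from -0.74 to 0.64, Psmb9 from -0.34 to 0.24, Psme4 from -0.21 to 0.012, Pomp from -0.024 to 0.52 and Nfe2l2 from -0.15 to 0.51. A lone array left in a group was assumed to vary like the other group. Leaving out an array also leaves the replicate numbers unbalanced between the groups, and replicate 2 was above replicate 1 in both groups in 24 of the 35 members. A turn of sign in these fits therefore does not show that the arrays of the same number differed in direction. The cause of these turns was not tested.

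With the replicate number as a block, 0 rows passed and 7537 had an unadjusted p under 0.05, against 3698 without it, and 1 member did in either fit. The members' differences, such as 0.31 for Psma7, are the same by construction. Deviations of arrays with the same number correlated at 0.42 over all rows and at 0.78 over the brighter rows, on 2 pairs. The labels number the replicates but do not say whether a number marks a shared batch. The reported fit has no block, so its SEs and intervals, and the overlap of arrays, include any part shared by arrays of the same number. Psma7 was over an unadjusted p of 0.05, and 0 members under it, with the variance trend, median centring, the filter on dim rows, and without shMCT-1 replicate 1, shMCT-1 replicate 2 or NC replicate 2. Without NC replicate 1 the 1 member under it was Psmd5 in place of Psma7.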
